A study of Mus musculus with 6 samples.

Results

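The 8 E2F transcription factor genes (E2f1 to E2f8) and the genes of the Rb-like pocket proteins p107 (Rbl1) and p130 (Rbl2) were followed in RNA-sequencing libraries of the mouse pre-osteoblast line MC3T3-E1, with and without knockdown of the class II histone deacetylase Hdac4. They were chosen by name, as the rows whose Ensembl gene identifier maps to those symbols. These are 10 of the 53801 gene identifiers counted and 10 of the 14531 that had enough counts to be tested. Their counts ran from 366 for E2f2 to 3488 for Rbl1, so that all 10 passed the filter on low counts in both groups. The study asked how Hdac4 acts on the proliferation of osteoblast lineage cells.

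Both groups carried a lentiviral vector in which a U6 promoter drives a short hairpin RNA, together with ZsGreen1 and puromycin resistance, and both were infected in the presence of polybrene and then kept in 5 μg/mL puromycin for 7 days. The Control group (3 libraries) expressed a scrambled non-silencing sequence and the Hdac4-knockdown group (3 libraries) an shRNA against Hdac4. Each group is a population of infected cells with 1 hairpin. The lowering of Hdac4, any other action of that hairpin and any other difference between the infected populations therefore cannot be told apart. The sources call the 3 libraries of a group independent RNA samples and biological replicates, without saying that they were infected separately, and the p-values measure the spread between these samples, which may be technical.

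E2F factors bind DNA mostly as dimers with a DP protein and control the genes that carry cells from G1 into S phase. E2f1, E2f2 and E2f3 are the classical activators. E2f4 and E2f5 act mainly as repressors in complex with a pocket protein, p107 or p130, which recruits the MuvB core and deacetylase complexes in quiescent cells and early G1. E2f6, E2f7 and E2f8 repress without a pocket protein, E2f6 within a Polycomb complex and the atypical factors E2f7 and E2f8 through a pair of DNA-binding domains of their own. Cyclin-dependent kinases release the E2Fs by phosphorylating the pocket proteins, and several E2F and pocket protein genes are themselves transcribed in late G1 through E2F sites. Since the RNA comes from whole cultures, fewer cells in a phase of the cycle and less RNA per cell cannot be told apart in any value given here.

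Reads counted on genes numbered 29096544 to 31651826 per library. Levels are given as TMM-normalized counts scaled to library size (CPM), and a gene was called lower or higher at an edgeR adjusted p-value below 0.05 with a log2 fold change beyond 0.05. Hdac4 was at 40.7, 40.2 and 39.9 CPM in Control and 30.7, 28.8 and 29.5 CPM in Hdac4-knockdown libraries, and 3536 of its 15813 exon bases are shared with Gm26720. Of the pre-osteoblast markers, Runx2, the master factor of the lineage, was at 65.3 to 74.6 CPM in Control and 73.0 to 82.9 CPM in Hdac4-knockdown libraries, whereas Alpl, Bglap and Ibsp were too low to test and Ibsp had no count in Control. The 10 osteoblast markers summed to 4771 to 4783 CPM in Control and 21436 to 22275 CPM in Hdac4-knockdown libraries, with 5 called higher and 2 lower. The rise of that sum rested on the collagens Col1a1, from 338 ± 14.4 to 11015 ± 326 CPM, and Col1a2, from 1213 ± 22.5 to 8572 ± 163 CPM. Dlx5 rose from 0.191 ± 0.0695 to 8.32 ± 1.02 CPM and Sp7 from 0.145 ± 0.0828 to 2.71 ± 0.667 CPM. Spp1, the largest part of the sum in Control, fell from 3154 ± 30.9 to 2046 ± 36.1 CPM. Msx2 fell from 2.12 ± 0.325 to 1.13 ± 0.183 CPM. The 5 skeletal muscle markers, Myod1 among them, were all called lower, from a sum of 163 to 173 CPM to 32.0 to 36.2 CPM. Sums for 5 markers each were 13.4 to 16.0 against 15.6 to 18.2 CPM for macrophages (mainly Cd14, with Adgre1 at 0). For endothelium they were 0.262 to 0.421 against 2.81 to 3.16 CPM (mainly Pecam1, with Emcn at 0). They were 0.491 to 0.969 against 0.598 to 0.905 CPM for epithelium and 27.3 to 29.6 against 3.07 to 4.55 CPM for adipocytes (mainly Pparg). For chondrocytes they were 125 to 128 against 169 to 186 CPM (Acan and Col9a1 at 0). The chondrocyte difference was mainly Col2a1, from 0.827 ± 0.179 to 51.1 ± 2.40 CPM, while Sox9 was at 126 ± 1.66 and 127 ± 10.2 CPM and was not called. The part of these markers in the changes of the E2F and pocket protein genes was not tested.

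The promoters of the 10 genes were read first, because E2F genes are themselves known targets of E2F sites. RefSeq promoter windows (GRCm38.p6, 250 bases before to 50 bases after the transcript start) were found for 8 genes, in 10 windows, and not for E2f4 and E2f5. The E2F motif was searched as TTCCCGC, or TTGCCGC, or TTCGCGC, or TTGGCGC, and the CHR element, through which MuvB complexes bind late cell cycle genes, as TTTGAA, or TTCGAA, each on both strands. An E2F match stood in 5 of the 10 windows, against 9.57% of the 32851 mouse windows of this length, and a CHR match in 4 of the 10, against 19.2%. These are matches of letters, not sites shown to be bound. The windows with an E2F match are shown with the matches in capitals, 5′ to 3′ on the strand of the gene.
E2f8, chr7:48881547-48881846, minus strand: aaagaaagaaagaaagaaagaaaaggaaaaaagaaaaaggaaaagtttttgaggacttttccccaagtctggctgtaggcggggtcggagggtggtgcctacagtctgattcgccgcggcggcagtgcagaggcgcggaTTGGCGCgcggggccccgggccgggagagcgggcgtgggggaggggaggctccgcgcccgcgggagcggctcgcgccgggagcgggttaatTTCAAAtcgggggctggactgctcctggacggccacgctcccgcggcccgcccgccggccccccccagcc
E2f2, chr4:136172024-136172323, plus strand: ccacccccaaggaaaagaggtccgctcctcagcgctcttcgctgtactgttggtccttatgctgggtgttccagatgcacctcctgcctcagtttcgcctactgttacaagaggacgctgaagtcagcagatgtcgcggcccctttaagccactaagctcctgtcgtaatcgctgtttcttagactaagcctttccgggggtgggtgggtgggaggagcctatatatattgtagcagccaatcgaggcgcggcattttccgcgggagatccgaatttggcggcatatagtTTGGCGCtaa
Rbl1, chr2:157204485-157204784, minus strand: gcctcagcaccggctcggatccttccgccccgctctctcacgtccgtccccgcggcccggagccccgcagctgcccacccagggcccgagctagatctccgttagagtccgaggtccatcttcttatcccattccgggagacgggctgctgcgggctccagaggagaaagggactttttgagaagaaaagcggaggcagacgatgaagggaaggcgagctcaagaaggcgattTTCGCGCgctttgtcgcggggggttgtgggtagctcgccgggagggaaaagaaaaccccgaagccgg
E2f7, chr10:110745189-110745488, plus strand: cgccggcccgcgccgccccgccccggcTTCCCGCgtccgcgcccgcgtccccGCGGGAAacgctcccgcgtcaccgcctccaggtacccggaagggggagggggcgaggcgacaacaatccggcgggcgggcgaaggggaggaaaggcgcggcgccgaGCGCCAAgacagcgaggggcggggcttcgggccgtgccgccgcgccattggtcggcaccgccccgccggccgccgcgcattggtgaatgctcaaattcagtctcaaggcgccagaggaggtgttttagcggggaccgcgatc
E2f3, chr13:29986014-29986313, minus strand: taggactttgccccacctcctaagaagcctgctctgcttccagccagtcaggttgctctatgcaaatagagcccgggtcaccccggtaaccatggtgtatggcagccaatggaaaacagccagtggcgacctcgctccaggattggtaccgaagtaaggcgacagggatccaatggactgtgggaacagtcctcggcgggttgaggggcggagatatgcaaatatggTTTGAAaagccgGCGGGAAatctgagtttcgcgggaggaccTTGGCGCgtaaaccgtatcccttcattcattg

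The E2f8 window held TTGGCGC at base 140 and the CHR letters TTCAAA, the reverse strand of TTTGAA, at base 231. In the first E2f2 window TTGGCGC stood at base 291, behind the RefSeq start, which lies 120 bases upstream of the GENCODE gene start, and in Rbl1 TTCGCGC stood at base 234, just before it. The E2f7 window held 3 E2F matches, at bases 28, 53 and 159. E2f3 had 2 E2F matches, at bases 240 and 269, and a CHR match at base 228, and no E2F match overlapped a CHR match in these windows. At least 2 E2F matches were found in 1.18% of all windows. The windows of E2f1, E2f6 and Rbl2, and the second windows of E2f2 and E2f3, held no E2F match, but the RefSeq starts of the E2f1 window and of the second E2f2 and E2f3 windows lie 466, 8388 and 1672 bases inside the GENCODE gene. CHR matches without an E2F match were found in the second E2f2 window and in Rbl2, at base 50.

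Of the 10 genes, 8 were called lower in Hdac4-knockdown libraries and none higher, where 37.1% of the 14531 genes tested were called lower, 38.0% higher and 75.1% in either direction. E2f8 and E2f2 were called lower with a log2 fold change below -1, as were 10.6% of the genes tested. The median log2 fold change of the 10 genes was -0.48, against 0.014 over all genes tested. In 9 of the 10 genes the Control and Hdac4-knockdown libraries did not overlap, which was so for 76.8% of the genes tested. At an unadjusted p below 0.05 in edgeR, 9 genes were lower and none higher, beside 37.9% and 38.8% of all genes tested. DESeq2 called 8 lower and none higher (35.7% and 36.4% of all genes), and limma-voom 9 lower and none higher (37.2% and 37.9%). For every gene whose groups did not overlap, a two-sided exact permutation test gave p = 0.1, the smallest that 3 libraries against 3 allow. With a log2 fold change threshold of 0.5, 5 of the 10 genes were called lower, as were 19.8% of the genes tested.

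**Figure D1:**
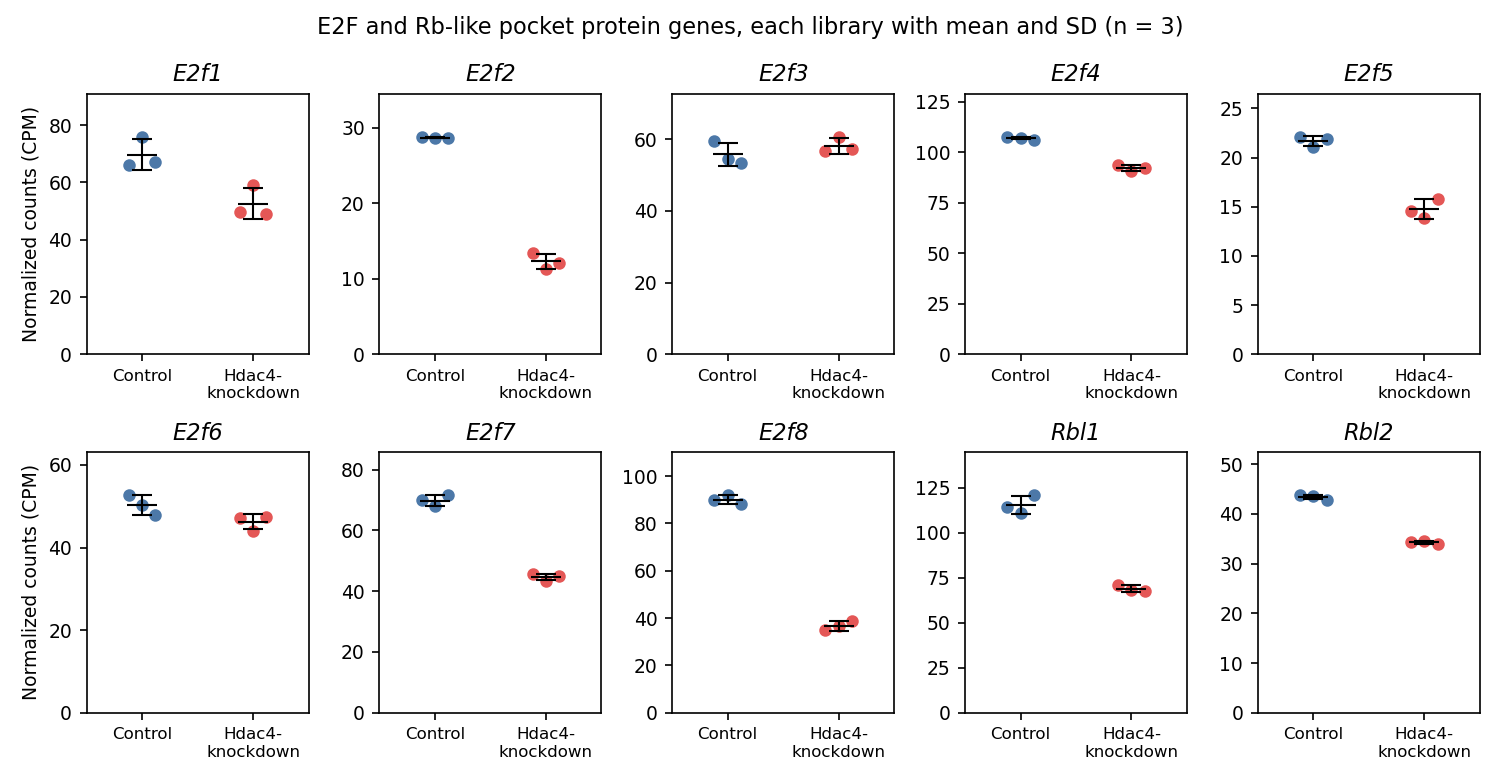
Normalized counts (CPM, y axis from 0, a scale of its own for each gene) of the 10 genes in the 3 Control and 3 Hdac4-knockdown libraries, with points for libraries and bars for mean and SD. The Hdac4-knockdown points lie below all Control points for every gene except E2f3, and the gap is widest for E2f8, with 88.2 to 91.8 CPM in Control and 34.8 to 38.7 CPM in Hdac4-knockdown libraries.

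Among the activators, E2f2 fell most, E2f1 fell less, and E2f3 was not called. E2f2 (ENSMUSG00000018983; chromosome 4, 136172394 to 136196057, plus strand) was at 28.8, 28.7 and 28.6 CPM in Control libraries and at 13.4, 11.4 and 12.2 CPM in Hdac4-knockdown libraries. The Control libraries were nearly equal, and no knockdown library came near them. The mean fell to 42.8% of Control (log2 fold change -1.22, SE 0.075, adjusted p = 1.31e-11).

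E2f1 (ENSMUSG00000027490; chromosome 2, 154559407 to 154569892, minus strand), the activator best known for driving S phase entry and, in excess, apoptosis, was at 66.2, 75.9 and 67.0 CPM in Control libraries. In Hdac4-knockdown libraries it was at 49.8, 59.0 and 49.1 CPM. The second library of each group stood above the other two, and E2f1 varied most between replicates of these genes in both groups, with a coefficient of variation of 7.70% in Control and 10.5% in Hdac4-knockdown libraries. Even so the groups did not overlap, and the log2 fold change was -0.40 (SE 0.068, adjusted p = 2.48e-05), a mean of 75.5% of Control.

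E2f3 (ENSMUSG00000016477; chromosome 13, 29906575 to 29986063, minus strand) encodes the isoforms E2f3a and E2f3b from separate promoters, which gene counts do not separate. It was at 59.5, 54.5 and 53.4 CPM in Control and 56.6, 60.6 and 57.2 CPM in Hdac4-knockdown libraries. The groups overlapped, with the highest Control library above 2 of the knockdown libraries. The log2 fold change was 0.059 (SE 0.0546, adjusted p = 0.334), with a 95% interval from -0.055 to 0.173, so that a fall as large as that of any called gene lies outside the interval. With upper quartile normalization, which moved the median of all genes up by 0.089, E2f3 reached 0.15 and was called higher (adjusted p = 0.0216).

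The pocket-bound repressors E2f4 and E2f5 both fell. E2f4 (ENSMUSG00000014859; chromosome 8, 105297663 to 105305370, plus strand), the partner of p107 and p130 in most quiescent cells, was at 108, 107 and 106 CPM in Control and 93.7, 91.0 and 92.2 CPM in Hdac4-knockdown libraries. Its libraries were tightly grouped in both conditions, and the fall was the smallest of the 8 called, to 86.2% of Control (log2 fold change -0.21, SE 0.0425, adjusted p = 0.00015). E2f5 (ENSMUSG00000027552; chromosome 3, 14578641 to 14606309, plus strand), the other E2F that prefers these pocket proteins, was at 22.1, 21.1 and 21.9 CPM in Control and 14.6, 13.9 and 15.8 CPM in Hdac4-knockdown libraries. Every knockdown library lay below every Control library, and the mean fell to 68.0% of Control (log2 fold change -0.56, SE 0.0754, adjusted p = 1.67e-06).

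The repressors that need no pocket protein separated into the atypical pair, which fell, and E2f6, which was not called. E2f8 (ENSMUSG00000046179; chromosome 7, 48866429 to 48881596, minus strand), whose window with an E2F and a CHR match is printed first, was at 90.1, 91.8 and 88.2 CPM in Control and 34.8, 36.5 and 38.7 CPM in Hdac4-knockdown libraries. The 3 knockdown libraries lay far below the 3 Control libraries, and at 40.7% of Control it was the largest fall of the 10 genes (log2 fold change -1.30, SE 0.0521, adjusted p = 1.44e-14). Of its 5443 exon bases, 610 are shared with Gm2788 on the other strand, where reads of this unstranded kit cannot be assigned to 1 gene. Reads shared between genes were left out, so the level of E2f8 may be too low. Over 14 alternatives in processing its log2 fold change ran from -1.33 to -1.21.

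E2f7 (ENSMUSG00000020185; chromosome 10, 110745439 to 110787384, plus strand), the closest relative of E2f8, was at 70.0, 67.9 and 71.5 CPM in Control and 45.5, 43.5 and 45.0 CPM in Hdac4-knockdown libraries. It fell to 64.0% of Control with no overlap between the groups (log2 fold change -0.64, SE 0.0498, adjusted p = 5.08e-10). Its 95% interval, from -0.748 to -0.540, does not meet that of E2f8, from -1.40 to -1.19. E2f6 (ENSMUSG00000057469; chromosome 12, 16810963 to 16839742, plus strand) was at 52.6, 50.2 and 47.9 CPM in Control and 47.3, 44.1 and 47.3 CPM in Hdac4-knockdown libraries. The highest knockdown library was just under the lowest Control library. The log2 fold change was -0.12 (SE 0.0554, 95% interval -0.237 to -0.00551), and the edgeR adjusted p was 0.0542. The 95% interval thus lay below 0, and 4 of 14 alternatives called E2f6 lower.

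Both Rb-like pocket protein genes fell, Rbl1 more than Rbl2. Rbl1 (ENSMUSG00000027641; chromosome 2, 157145893 to 157204534, minus strand) encodes p107, the pocket protein of cycling cells, and its promoter is known to carry E2F sites. It was at 114, 111 and 121 CPM in Control and 71.2, 68.2 and 67.6 CPM in Hdac4-knockdown libraries. No library of one group entered the range of the other, and the mean fell to 59.8% of Control (log2 fold change -0.74, SE 0.0474, adjusted p = 2.57e-11).

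Rbl2 (ENSMUSG00000031666; chromosome 8, 91070057 to 91123844, plus strand) encodes p130, the pocket protein that dominates in resting cells. It was at 43.7, 43.6 and 42.9 CPM in Control and 34.3, 34.6 and 34.0 CPM in Hdac4-knockdown libraries. The 3 libraries of each group lay within 1 CPM of each other, and the fall was to 79.0% of Control (log2 fold change -0.34, SE 0.0537, adjusted p = 1.19e-05). Of its 7558 exon bases 1585 are shared with Aktip and Gm45464 on the other strand, so its counts are uncertain to that extent. Overlaps of E2f5, 26 of 1782 exon bases, and E2f7, 86 of 9009, were small.

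**Figure D2:**
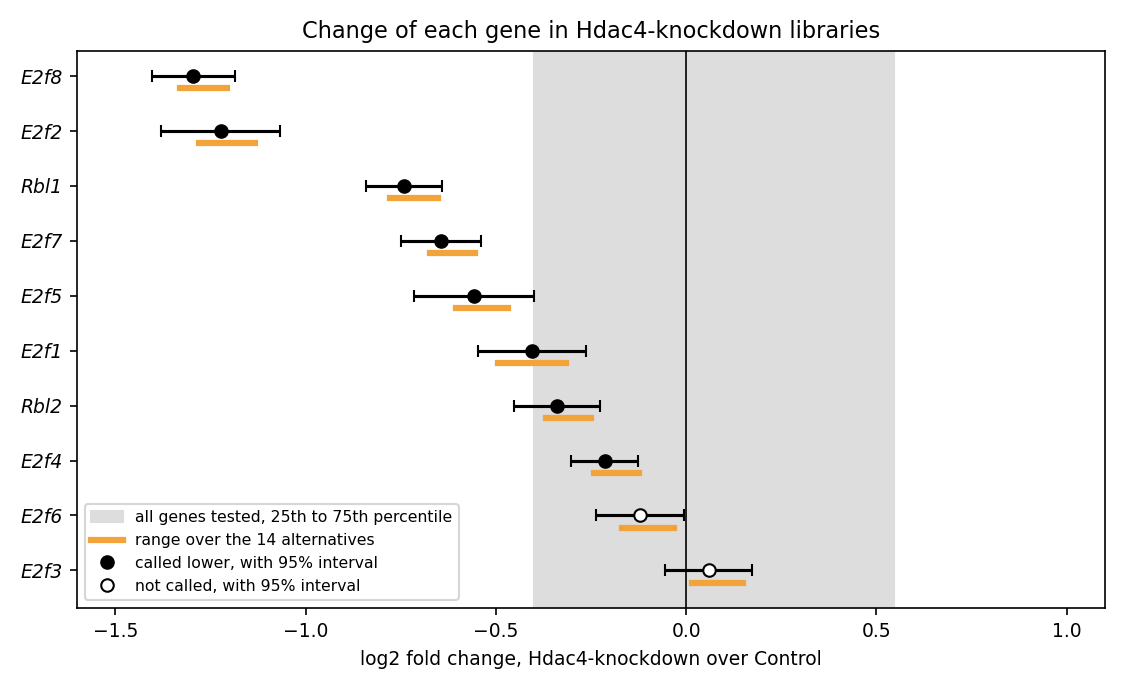
log2 fold change (x axis, Hdac4-knockdown over Control) of each gene with its 95% interval, filled where called lower and open where not called, above an orange bar for its range over 14 alternatives in processing. The grey band holds the middle 50% of the 14531 genes tested, from -0.40 to 0.55. E2f8, E2f2, Rbl1, E2f7 and E2f5 lie below the band, E2f1 sits at its edge, and E2f3 is the gene whose estimate is above 0.

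To compare the genes with each other, CPM was divided by the summed length of the annotated exons of each gene. In Control libraries E2f4 was the most abundant by this measure, at 43.7 ± 0.264 CPM per kilobase (SD, n = 3), followed by E2f1 at 22.1 ± 1.70, Rbl1 at 19.2 ± 0.841 and E2f8 at 16.5 ± 0.328. E2f5 was at 12.2 ± 0.289, E2f3 at 10.3 ± 0.600, E2f6 at 8.88 ± 0.415 and E2f7 at 7.75 ± 0.200 CPM per kilobase. E2f2, at 5.88 ± 0.0175, and Rbl2, at 5.74 ± 0.0572, came last, and no neighbours in this order overlapped. The lengths include bases shared with other genes, such as 1585 of 7558 in Rbl2 and 610 of 5443 in E2f8. Reads shared between genes were left out, so the levels of Rbl2 and E2f8 may be too low and their places uncertain. In Hdac4-knockdown libraries E2f4 led with 37.6 ± 0.561, then E2f1 with 16.7 ± 1.76, Rbl1 with 11.5 ± 0.318, E2f3 with 10.7 ± 0.402, E2f5 with 8.28 ± 0.552 and E2f6 with 8.16 ± 0.326 CPM per kilobase. E2f8 stood at 6.74 ± 0.362, E2f7 at 4.96 ± 0.116, Rbl2 at 4.54 ± 0.0406 and E2f2 at 2.52 ± 0.209. E2f8 thus moved from rank 4 to rank 7 and E2f3 from rank 6 to rank 4, and among neighbours E2f5 and E2f6 overlapped. Lengths of the longest transcript raised the Control level of E2f6 to 16.7, of E2f7 to 12.8 and of Rbl2 to 8.81 CPM per kilobase, so the order depends on which exons are used. By that length E2f8 moved from rank 3 to rank 6 and E2f3 from rank 8 to rank 5.

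Taken as a share of the summed level per kilobase of the 8 E2F genes, E2f4 made up 34.3% ± 0.350 in Control and 39.3% ± 0.845 in Hdac4-knockdown libraries. The share of E2f3 was 8.08% ± 0.438 in Control and 11.2% ± 0.345 in Hdac4-knockdown libraries. E2f8 went from 13.0% ± 0.0812 to 7.04% ± 0.372 and E2f2 from 4.62% ± 0.0602 to 2.63% ± 0.235. E2f1 made up 17.4% ± 1.17 in Control and 17.4% ± 1.72 in Hdac4-knockdown libraries (SD, n = 3 for each share).

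**Figure D3:**
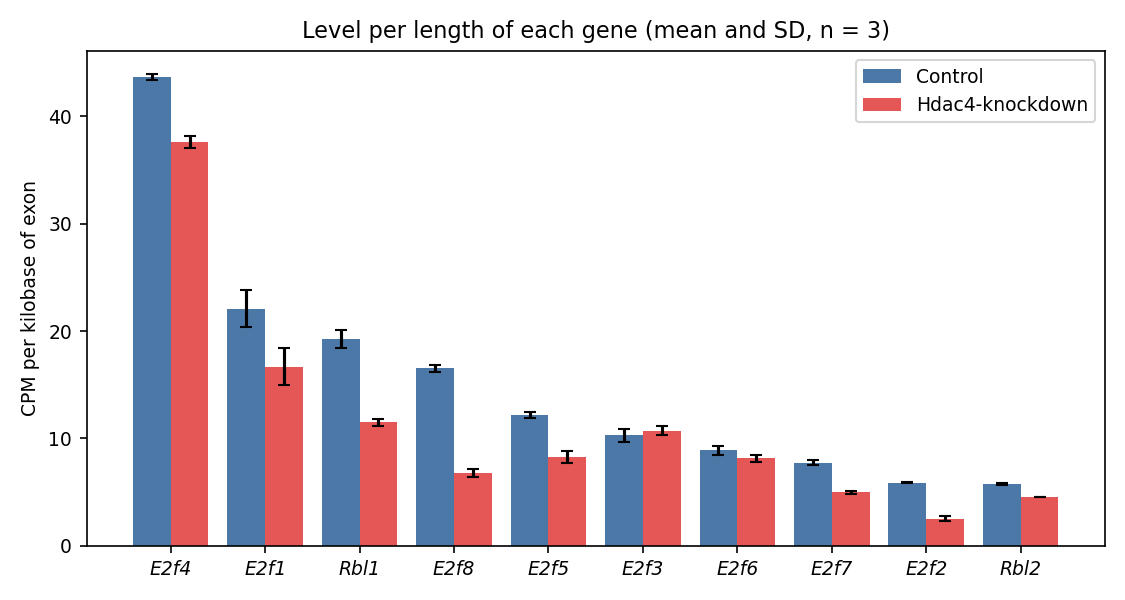
Level per length of each gene (y axis, CPM per kilobase of exon, from 0) in Control and Hdac4-knockdown libraries, as bars for the mean of 3 libraries with SD, ordered by the Control level. E2f4 is the tallest in both groups, at 43.7 and 37.6, and the bar of E2f8 drops from 16.5 to 6.74 while that of E2f3 stays between 10.3 and 10.7.

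Ratios within a library do not depend on the scaling between libraries, and they are given without a test. The ratio of Rbl2 to Rbl1 per kilobase was 0.304, 0.311 and 0.282 in Control and 0.382, 0.402 and 0.399 in Hdac4-knockdown libraries, with no overlap. E2f7 to E2f8 was 0.469, 0.447 and 0.490 in Control and 0.790, 0.720 and 0.702 in Hdac4-knockdown libraries, again with no overlap. By contrast, E2f4 to E2f1 was 2.09, 1.82 and 2.04 in Control and 2.42, 1.98 and 2.42 in Hdac4-knockdown libraries, which overlapped. The summed activators E2f1 to E2f3 over summed E2f4 and E2f5 also overlapped, at 0.672, 0.719 and 0.664 in Control and 0.624, 0.718 and 0.615 in Hdac4-knockdown libraries. Of these 4 ratios, those within the pocket protein pair and within the atypical pair had separate ranges in the groups. Ratios of other pairs were not compared.

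The partners that E2Fs and pocket proteins work with were read from lists of genes by role, each set beside the 37.1% of genes called lower and 38.0% called higher. The dimerization partners Tfdp1 and Tfdp2 and the retinoblastoma gene Rb1 itself were all 3 called lower. Tfdp1, the main DP subunit, went from 257 ± 4.65 to 186 ± 6.54 CPM (log2 fold change -0.46, adjusted p = 4.06e-09) and Tfdp2 from 31.7 ± 0.424 to 25.4 ± 1.58 CPM (-0.32, adjusted p = 0.00016). Rb1 went from 38.4 to 27.2 CPM (-0.50, SE 0.073, adjusted p = 4.66e-06), with 896 of its 6015 exon bases shared with Rcbtb2 and Lpar6.

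Of 7 genes for the MuvB core and its activator partners, 5 were called lower and 2 were not called, with a median log2 fold change of -0.50. Foxm1, the forkhead factor of late cell cycle genes, fell most, from 165 ± 6.15 to 74.0 ± 1.91 CPM (log2 fold change -1.15, adjusted p = 9.68e-15). B-Myb (Mybl2) fell by 0.69 on the log2 scale, the histone chaperone Rbbp4 by 0.79, and the DNA-binding MuvB subunit Lin54 and the scaffold Lin9 by 0.50 each. Rbbp4 shares 1578 of its 8744 exon bases with Sync and Gm26722. The other core subunits, Lin37 at -0.023 (adjusted p = 0.826) and Lin52 at -0.033 (adjusted p = 0.753), were not called.

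The kinase side that releases E2Fs from pocket proteins was uneven, with 5 of 8 G1 cyclins and kinases called lower and 1 higher. The D-type cyclins diverged. Ccnd1 was at 431 ± 2.38 CPM in Control and 409 ± 8.02 CPM in Hdac4-knockdown libraries and was not called (log2 fold change -0.076, adjusted p = 0.0697). Its groups did not overlap, and 1100 of its 4709 exon bases are shared with LTO1. With limma-voom, or with no filter, 6 of the 8 G1 cyclins and kinases were called lower. Ccnd3 fell from 122 ± 6.41 to 78.6 ± 2.83 CPM (log2 fold change -0.64, adjusted p = 4.47e-10), whereas Ccnd2 rose from 65.5 ± 2.04 to 328 ± 21.1 CPM (log2 fold change 2.32, adjusted p = 7.31e-19). Ccne2, a cyclin E and itself a known E2F target, fell by 0.62 on the log2 scale (adjusted p = 8.06e-08), although 609 of its 3495 exon bases are shared with Ints8. Its kinase Cdk2 was at -0.011 (95% interval -0.103 to 0.0814) and was not called.

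Corepressors that pocket proteins recruit gave 4 genes lower and 2 higher of 6. The histone H3 lysine methyltransferase Suv39h1 fell from 58.9 ± 2.80 to 20.9 ± 0.748 CPM (log2 fold change -1.49, adjusted p = 1.37e-14), with 767 of its 5270 exon bases shared with Gm14820. The deacetylase Hdac1 fell by 0.57 and Hdac2 by 0.22 on the log2 scale, and the pocket-binding protein Arid4a by 0.23. Sin3b, a scaffold for deacetylases, was at 0.13 (adjusted p = 0.0285) and the histone demethylase Kdm5a at 0.22 (adjusted p = 0.000976), both called higher. Without any one of the Control libraries, or without the second Hdac4-knockdown library, 1 corepressor gene was called higher in place of 2.

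The Polycomb complex PRC1.6, in which E2f6 resides, had 4 of 9 genes called lower and 5 higher, with a median log2 fold change of 0.25. With upper quartile normalization 2 of the 9 were lower. L3mbtl2, its malignant brain tumour domain subunit, fell by 0.55 on the log2 scale (adjusted p = 6.19e-08; 1023 of its 5945 exon bases are shared with Chadl) and the Max partner Mga by 0.24 (adjusted p = 0.00141). Rybp rose from 30.8 ± 0.994 to 57.4 ± 4.99 CPM (log2 fold change 0.90, adjusted p = 1.48e-10) and Pcgf6, the subunit that defines the complex, from 20.4 ± 1.78 to 30.2 ± 1.22 CPM (0.57, adjusted p = 7.16e-07). Germline genes that this complex is known to hold down, Stag3, Smc1b, Tuba3a, Tuba3b and Slc25a31, had at most 7 counts in any library, and none could be tested.

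Most of the known targets of these factors that are named here fell. Of 32 S phase genes bound by E2F, 29 were called lower, 1 higher and 2 not, with a median log2 fold change of -0.54. That list, too, was chosen with earlier results of these data known. Over all genes tested the shares were 37.1% lower and 38.0% higher. Rrm2, the regulated subunit of ribonucleotide reductase, fell from 500.0 ± 11.8 to 196 ± 7.06 CPM (log2 fold change -1.35, adjusted p = 1.42e-16), and the replication helicase subunit Gins1 from 25.7 ± 1.21 to 12.8 ± 1.69 CPM (-1.01, adjusted p = 2.67e-09). At the other end, the licensing factor Cdt1 was at 0.073 (adjusted p = 0.179) and was not called, and the uracil glycosylase Ung rose by 0.27 on the log2 scale (adjusted p = 0.0033).

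All 26 genes of a list of mitotic genes known to carry CHR elements were called lower, each with a log2 fold change below -1. Their median was -1.64. The list was chosen with earlier results of these data known. CHR matches in the promoters of its genes were not read out here. Of all genes tested 37.1% were called lower, and 10.6% with a log2 fold change below -1. Ube2c, which hands ubiquitin to the anaphase-promoting complex, went from 204 ± 5.52 to 44.5 ± 1.41 CPM (log2 fold change -2.20), with 592 of its 2600 exon bases shared with the muscle gene Tnnc2, and the mitotic cyclin Ccnb1 from 232 ± 2.15 to 58.0 ± 2.48 CPM (SD, n = 3). The smallest falls were those of Birc5, at -1.20, and the centromere motor Cenpe, at -1.29. Of the 10 E2F and pocket protein genes, E2f8 and E2f2 had a log2 fold change within the range of this list, from -2.20 to -1.20.

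Of 6 tested apoptosis genes that E2f1 is known to drive, 3 were called lower and 2 higher. Among all genes tested 37.1% were called lower and 38.0% higher, so calls in both directions do not set this list apart. Pmaip1 (Noxa) fell from 21.3 ± 0.735 to 1.05 ± 0.197 CPM (log2 fold change -4.34, adjusted p = 9.19e-17), and Apaf1, the core of the apoptosome, by 0.19 on the log2 scale (adjusted p = 0.00211). Bbc3 (Puma) was called higher at 0.30 (adjusted p = 0.0313) although its libraries overlapped. Without the first or the third Control library, or without the second or the third Hdac4-knockdown library, 1 apoptosis gene was called higher in place of 2. Bcl2l11 was not called at -0.14 (adjusted p = 0.112), and Trp73, a direct E2f1 target, was too low to test.

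**Figure D4:**
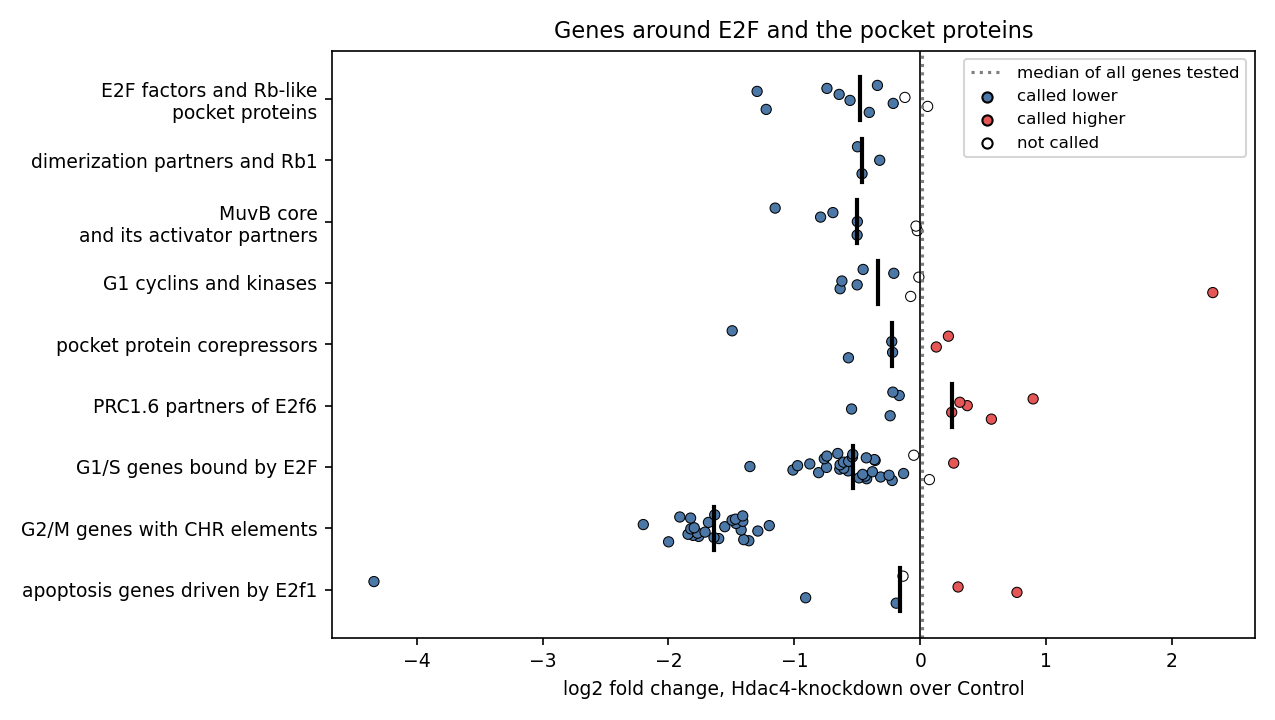
log2 fold change (x axis, Hdac4-knockdown over Control) of every tested gene of the E2F and pocket protein set and of 8 lists around it, 1 point a gene, blue where called lower, red where called higher and open where not called, with a black bar at the median of each list and a dotted line at the median of all genes tested. The mitotic list lies entirely below -1, with a median of -1.64, and the PRC1.6 list is the one whose median, 0.25, is above 0.

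For 4 of the genes, those with the most alike pattern were found by the distance of log2 CPM over the 6 libraries, each gene centred on its Control mean, among 10823 genes with at least 100 counts on average. Since each pattern is mainly a difference between 2 groups, these lists describe size of change and spread. The nearest to Rbl2 were Myo1c at a distance of 0.00959, Hnrnpl at 0.0312 and Rab2a at 0.0338. The nearest to E2f4 were Ctps at 0.0263, Maf1 at 0.0267 and Laptm4a at 0.0381. E2f7 had Ralgapb at 0.0453, Wipf1 at 0.0498 and Hnrnpa1 at 0.0505. E2f1, whose second libraries stood high, had Mgat4b at 0.076, Srsf9 at 0.0827 and Siva1 at 0.107, farther than for the other 3 genes.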

How the data were processed

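Poly-A selected RNA of 6 libraries (3 Control, 3 Hdac4-knockdown) was sequenced with an unstranded kit. The authors deposited raw counts per Ensembl gene, not normalized. The submitters' processing notes name FastQC, STAR 2.7.3a, HTSeq 0.12.4 and the build mm10, and the annotation release and the strand setting are not given in the sources used here. Lines for reads outside genes, shared between genes or aligned to several places, 14.3% to 15.0% of all read counts in a file, were left out. Symbols, positions and exon lengths came from GENCODE M21 (GRCm38, the same build), which matched 53706 of 53801 identifiers. Without strand, overlapping genes are uncertain.

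Counts were tested with edgeR 4.0.16 in R 4.3.3 (TMM, filterByExpr, quasi-likelihood F test, Benjamini-Hochberg over all 14531 genes tested) and checked on simulated data. Groups came from the sample labels. Replicates differed by more than sampling noise (chi-square per degree of freedom 3.38 to 9.15). The alternatives were DESeq2 1.42.0, limma-voom (limma 3.58.1), other size factors and filters, a replicate block, other thresholds, other gene lengths and leaving out each library. Levels are mean ± SD of 3 libraries. Named were all 10 genes, Hdac4, every gene of lists of up to 7, the 2 highest and 2 lowest of longer lists (at least 100 counts on average) and the 3 most alike genes. Some listed genes are counted but not reported here by name. The members, lists and motifs were chosen with earlier results of these data known, so no test was run over a list. The markers given by name, and Ccnd1, were named after their values were seen. Promoter sequences are from RefSeq. Figures were drawn with matplotlib 3.10.9.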

Additional observations from a re-analysis of the deposited data

Results flagged for a closer look

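Reads that aligned outside annotated genes, which no comparison used, made up 4.79% ± 0.241 of all read counts in the files of the Hdac4-knockdown libraries, from 4.64% to 5.07%, against 3.28% ± 0.122 in Control libraries, from 3.17% to 3.41% (SD, n = 3 each). This share was above the level of every Control library, which is why it is listed, and its part in the values of the E2F and pocket protein genes was not tested. Reads shared between genes went the other way, from 6.36% to 6.51% in Control to 5.84% to 5.92% in Hdac4-knockdown libraries.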

How the results depend on the processing

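The 8 genes called lower (E2f1, E2f2, E2f4, E2f5, E2f7, E2f8, Rbl1, Rbl2) stayed called in the same direction under all 14 alternatives with 1 choice of normalization, filter, tool, block or library changed, and no value changed sign. E2f3 ran from 0.015 to 0.15 and was called under 1 of them, and E2f6 from -0.17 to -0.032. E2f6 was called lower with no filter (-0.15, adjusted p = 0.0317), with limma-voom (-0.12, adjusted p just under 0.05), with the replicate block (-0.12, adjusted p = 0.0448) and without Control replicate 3 (-0.17, adjusted p = 0.0245). Over the 6 fits that leave out 1 library it ran from -0.17 to -0.087. Same-numbered libraries showed no strong shared deviation (correlations across genes -0.00523 to 0.0956). Such correlations cannot show whether the samples were paired. The replicate block changed no other call named here. With upper quartile normalization E2f3 reached 0.15 and 1 of the 10 genes was called higher, 2 PRC1.6 genes were lower and 2 S phase genes higher. Library size alone and at least 10 counts in every library also gave 2 S phase genes called higher, and no filter left 1 corepressor called higher. Leaving out 1 library gave 1 to 2 corepressors and 1 to 2 apoptosis genes called higher.

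With thresholds of 0.5 and 1 on the log2 fold change, 2879 and 1543 of all genes were called lower and 3579 and 2397 higher, and 5 and 2 of the 10 genes lower. The other lists gave, at 0.5 and at 1, 0 and 0 dimerization partners lower, 3 and 0 G1 cyclins and kinases lower, 2 and 1 corepressors lower and 0 and 0 higher, 1 and 0 PRC1.6 genes lower and 2 and 0 higher, 17 and 2 S phase genes lower and 0 and 0 higher, and 1 and 0 apoptosis genes higher. At 1, 1 MuvB gene and 1 apoptosis gene remained lower. With the longest transcript as length, Control levels per kilobase were 25.3 for E2f1, 6.06 for E2f2, 10.9 for E2f3, 53.7 for E2f4, 16.7 for E2f6, 12.8 for E2f7, 24.4 for E2f8, 23.7 for Rbl1 and 8.81 for Rbl2. Ratios became 0.372 in Control and 0.491 in Hdac4-knockdown libraries for Rbl2 to Rbl1, 0.523 and 0.823 for E2f7 to E2f8, and, in Control, 2.13 for E2f4 to E2f1 and 0.642 for activators over E2f4 and E2f5. These changes follow from the thresholds and lengths themselves. For the other changes the cause was not tested.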
